A study of Rattus norvegicus with 16 samples.

Results

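The 10 genes described here belong to the glucocorticoid response and were followed in whole blood of rats given repeated saline injections. They are Nr3c1, Fkbp5, Tsc22d3, Klf9, Zbtb16, Ddit4, Sgk1, Dusp1, Cxcr4 and Anxa1, taken by symbol from 26405 genes listed in at least 1 of the 16 count files, and all 10 were listed in every file. Where a symbol had several entries the one with the highest total was used, which applied to Nr3c1 (ENSRNOG00000014096, 89.1% of the counts of that symbol). The 16 libraries form a single group of saline controls, numbered 1 to 16. Each came from a male Sprague-Dawley rat, 85 to 90 days old, that received 4 injections of saline at 1 ml/kg, 2 h apart, without food or water during dosing, with sacrifice 3 h after the final dose. The rats lived on a 12 h light cycle, and blood was drawn from the heart in the late afternoon under a pentobarbital overdose. No uninjected rats were analysed here, so the values describe the spread among injected rats and not an effect of injection. Corticosterone was not analysed here either.

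In the rat the main glucocorticoid is corticosterone, which the adrenal gland releases in a daily rhythm and after handling or injection. It binds the glucocorticoid receptor, encoded by Nr3c1, which is held in the cytoplasm by heat shock proteins, moves to the nucleus and raises or lowers transcription of its targets. Glucocorticoids also change the make-up of blood, since lymphocytes leave the circulation while neutrophils enter it.

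The libraries held 21466776 to 31189549 estimated counts. File names carried 6 run codes: controls 1 to 3 shared code A, controls 4, 5, 7, 8 and 10 code B, controls 6 and 9 code C and controls 11 to 14 code D, while controls 15 and 16 each had their own (E and F). The labels do not say what the codes stand for. The study repeated its experiment on several dates, with 3, 7, 6 and 6 control rats. These sizes would allow code A, codes B with C, and codes D to F to be 1 date each. The labels do not give the dates, so this was not tested. For codes A, B and D, run, experiment and date cannot be told apart. Each library carries its own control ID in the labels, and p-values measure the spread between these libraries. Normalized counts are counts divided by a size factor per library. Liver transcripts stood out in control 2 (447350 summed normalized counts of 6 liver genes) and control 8 (19690), against a median of 43.1. Control 10 was highest for 5 heart muscle genes (414, median 15.3), and control 12 for thymus genes (5770, median 33.4) and fat genes (5637, median 64.3). Many results are therefore also given without controls 2, 8, 10 and 12. All blood cell marker lists were detected. Summed counts of 7 neutrophil genes ran from 35275 in control 6 to 1128300 in control 8, and those of 10 lymphocyte genes from 8463 in control 8 to 21181 in control 3.

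The sequences before the start sites of Dusp1, Anxa1 and Klf9 are shown because these 3 genes passed the test along the neutrophil markers described further on, Dusp1 and Anxa1 rising and Klf9 falling. They are the 250 bases before the RefSeq start, build GRCr8, 5′ to 3′ on the strand of the gene. Capitals mark TGACGTCA, the cyclic AMP response element, its half-site TGACG, and the TATA box TATAAA, each searched on both strands. The half-site lies within the full element. Dusp1 spans chr10:17184603-17184852 on the plus strand, Anxa1 chr1:227303733-227303982 on the minus strand and Klf9 chr1:230126396-230126645 on the plus strand.
Dusp1: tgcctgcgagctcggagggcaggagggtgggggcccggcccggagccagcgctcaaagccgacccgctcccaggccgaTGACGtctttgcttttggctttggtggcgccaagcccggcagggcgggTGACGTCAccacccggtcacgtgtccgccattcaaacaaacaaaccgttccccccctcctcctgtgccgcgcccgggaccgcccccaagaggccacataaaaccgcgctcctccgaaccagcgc
Anxa1: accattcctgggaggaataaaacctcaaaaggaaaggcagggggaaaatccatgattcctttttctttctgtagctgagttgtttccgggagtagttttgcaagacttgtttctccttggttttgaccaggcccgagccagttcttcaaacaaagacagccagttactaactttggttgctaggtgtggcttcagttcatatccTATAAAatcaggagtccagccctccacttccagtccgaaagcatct
Klf9: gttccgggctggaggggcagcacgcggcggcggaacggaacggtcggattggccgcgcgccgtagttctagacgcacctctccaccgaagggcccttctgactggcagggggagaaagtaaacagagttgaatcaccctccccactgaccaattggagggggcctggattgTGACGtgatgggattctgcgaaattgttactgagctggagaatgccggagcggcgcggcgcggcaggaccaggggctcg

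The full element TGACGTCA began 124 bases before the start of Dusp1, and a separate TGACG began 172 bases before it. In Anxa1 TATAAA began 46 bases before the start, and in Klf9 TGACG began 79 bases before it. Of all 33469 windows of this length, 1.59% held TGACGTCA, 18.2% held TGACG and 12.9% held TATAAA. RefSeq windows were found for 9 of the 10 genes, 14 windows in all, with none for Zbtb16. Of these 14 windows, 1 held TGACGTCA, 4 held TGACG and 5 held TATAAA. The receptor half-site AGAACA, on either strand, was in 0 of these 14 windows and in 17.5% of all windows. The spaced core ACANNNTGT was in 1 of them, at Tsc22d3, and in 5.81% of all windows. These are matches of letters only.

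The receptor gene varied least. Nr3c1 had 1273 normalized counts in control 1, a median of 1433 and 1695 in control 12, a range of 1.33-fold. Its coefficient of variation (CV, the SD as a percentage of the mean) was 8.94% (n = 16), and 0.657% of the 8672 genes averaging 100 or more normalized counts had a lower one. Both entries of Nr3c1 summed gave 9.65%. The value rests on the scaling, since scaling to total counts gave 24.1%, when the median CV of all genes also rose from 24.8% to 31.7%.

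The classical targets varied more. Fkbp5, a co-chaperone that lowers the affinity of the receptor for its hormone and is itself induced by it, had 427 normalized counts in control 10, a median of 877 and 2400 in control 15. Control 15 stood apart, the next highest being control 1 with 1503. The CV of Fkbp5 was 46.8%, above that of 85.2% of genes. Tsc22d3, which encodes the anti-inflammatory protein GILZ, had 3663 in control 10, a median of 8769 and 12600 in control 7, with a CV of 31.4%. Control 10 was thus the lowest library for both genes. It also had the lowest summed counts of 5 platelet genes (6898, median 51851) and the highest of 5 erythroid genes (867710, median 335730). With the mean log2 platelet level, Tsc22d3 had r = 0.61 (unadjusted permutation p = 0.011), and 0.42 without controls 10 and 12. Fkbp5 had r = 0.35 (unadjusted permutation p = 0.181), and -0.14 without them. The part of platelets in these levels was not tested. Klf9, a zinc finger transcription factor, had 70.02 in control 8, a median of 153 and 257 in control 11, with a CV of 32.8%. Zbtb16, the transcription factor PLZF, was low throughout, with 2.50 in control 7, a median of 13.5 and 67.1 in control 1. Its 2 to 77 raw counts per library leave a large counting error, and it did not pass the low-count filter of the 16-library fits.

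Among the stress and signalling targets, Ddit4, an inhibitor of mTORC1, had 285 normalized counts in control 8, a median of 686 and 1024 in control 15 (CV 35.7%). Sgk1, a serum- and glucocorticoid-induced kinase, had 414 in control 6, a median of 760 and 1538 in control 1 (CV 35.4%). Both ranges were below 4-fold. Dusp1, a phosphatase that inactivates MAP kinases, spread further, from 2555 in control 6 through a median of 9300 to 26563 in control 1 (CV 67.3%).

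Of the genes acting in leukocyte traffic, Cxcr4, the chemokine receptor that holds cells in bone marrow, had 694 normalized counts in control 8, a median of 1903 and 2969 in control 2 (CV 39.4%). Anxa1, a calcium-dependent phospholipid-binding protein abundant in neutrophils, had the widest range of the 9 genes averaging 100 or more. It ran from 4023 in control 6 through a median of 15985 to 90092 in control 8, which is 22.4-fold, and its CV was 96.6%. Control 8 was lowest for Klf9, Ddit4 and Cxcr4 and highest for Anxa1. It held liver transcripts and also had the highest neutrophil and the lowest lymphocyte sums. Control 2, with more liver transcripts, was highest for Cxcr4 and had 4801 for Anxa1, the lowest apart from control 6. Control 3 was close to it for Cxcr4 (2905). Mean Cxcr4 was 2786 in run A, which holds both, beside 1552 in run B and 1606 in run D. The part of the liver transcripts was not tested. Without controls 2, 8, 10 and 12 the CV was 64.9% for Anxa1, 32.9% for Cxcr4 and 31.9% for Ddit4.

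**Figure D1:**
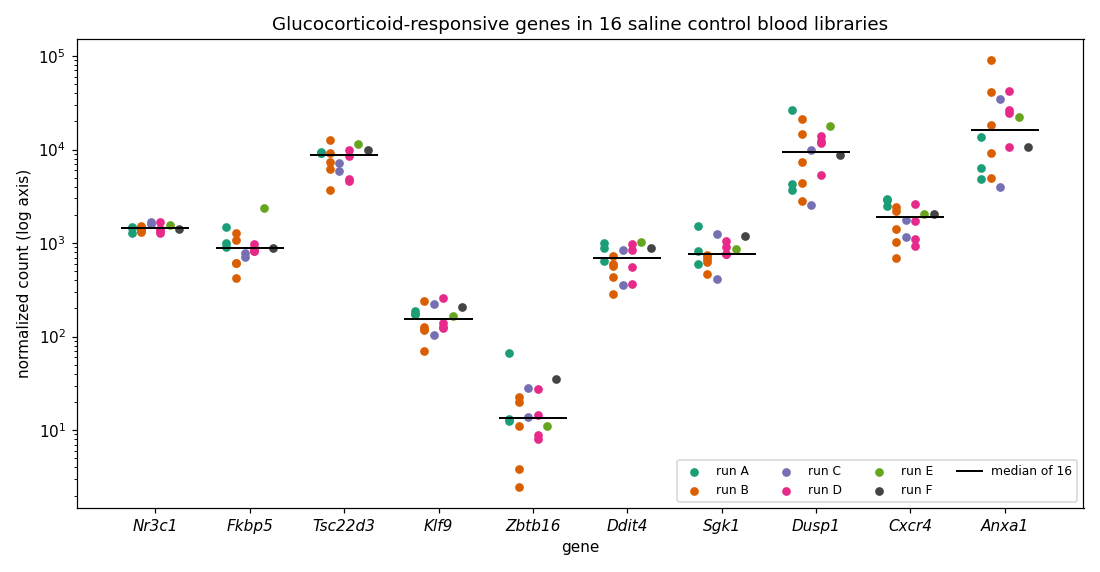
Normalized counts (log axis) of the 10 genes in each of the 16 saline control libraries, coloured by run code, with the median as a bar. Nr3c1 spans 1273 to 1695 while Anxa1 spans 4023 to 90092.

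The median CV of the 9 genes averaging 100 or more was 35.7%, beside 24.8% over all 8672 such genes. Of the 9 genes, 8 lay above that median and 4 (Fkbp5, Dusp1, Cxcr4 and Anxa1) above the upper quartile of 36.8%. The latter count was 7 under total count scaling and 6 without controls 2, 8, 10 and 12. Nr3c1 alone lay below the median. The plot of CVs shows these genes against all others.

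**Figure D2:**
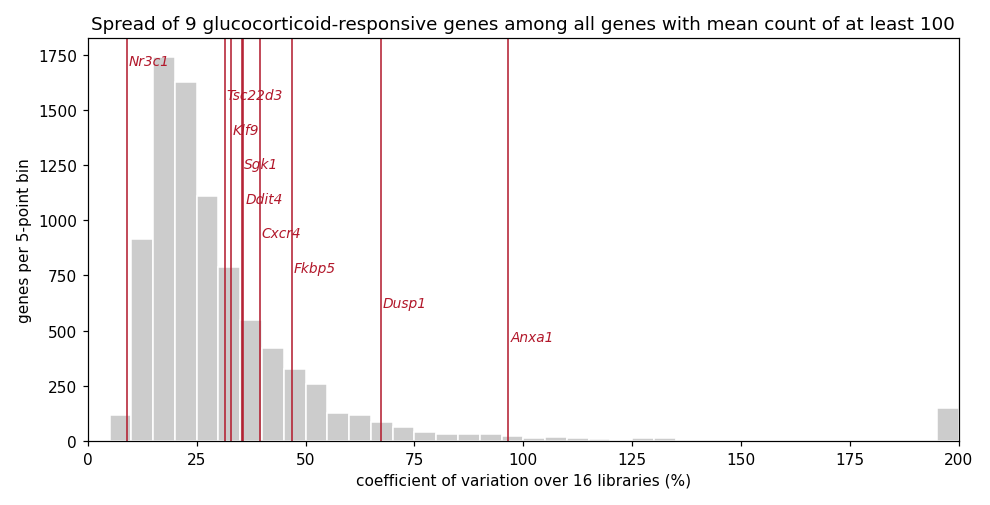
Histogram of the coefficient of variation over 16 libraries (%) for the 8672 genes averaging 100 or more normalized counts, in bins of 5 percentage points, with larger values gathered in the last bin. Red lines mark 9 of the 10 genes, from Nr3c1 at 8.94% to Anxa1 at 96.6%.

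Runs with at least 3 libraries were compared, to ask whether the run codes carried the spread. None of the 10 genes differed between runs A and B, A and D or B and D with edgeR's quasi-likelihood test at an adjusted p under 0.05. Over all 12952 genes tested, 0% were called between A and B, 0% between A and D and 2.3% between B and D. At an unadjusted p under 0.05 the shares were 13.6%, 5.41% and 11.3% of these genes, beside 2, 0 and 0 of the 10 genes. DESeq2 called 568, 8 and 765 genes and limma 10, 2 and 306, with none of the 10 genes among them. The largest log2 difference was that of Anxa1, 1.95 ± 0.86 (SE) higher in run B than in run A (edgeR adjusted p = 0.349). In run A Anxa1 had 4801, 6387 and 13733 normalized counts, and in run B 4900, 9154, 18236, 41215 and 90092, so the runs overlapped. For B relative to A, log2 differences were -1.37 ± 0.75 for Zbtb16, -0.85 ± 0.41 for Cxcr4 and -0.70 ± 0.34 for Ddit4. Their edgeR adjusted p-values were 0.460, 0.401 and 0.400. Sgk1 was 0.63 ± 0.27 lower on the log2 scale in run B than in run A (edgeR adjusted p = 0.330). The median log2 difference of the 10 genes was -0.47 for B relative to A, beside -0.03 over all genes. It was -0.24 for D relative to A, beside -0.01, and 0.14 for D relative to B, beside 0.04.

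Blood cell markers were then used as the x variable of a fit across genes, with the mean log2 level of each marker list. Slopes are log2 changes per log2 unit of the marker level. In bulk blood, fewer cells of a type and less RNA per cell cannot be told apart. The marker levels themselves were related, with r = 0.85 between neutrophil and monocyte markers and r = -0.82 between neutrophil and lymphocyte markers (permutation p = 4e-05 and 3e-05, rho = 0.80 and -0.84 with permutation p = 0.00025 and 0.00011, n = 16, 10 such pairs computed).

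Along the neutrophil markers, Anxa1 and Dusp1 rose and Klf9 fell, 3 of the 9 genes tested. The background was 15.8% of 10913 genes rising and 11.9% falling. Anxa1 rose by 0.90 ± 0.06 (SE) per log2 unit (edgeR adjusted p = 1.64e-09). Its r with the marker level was 0.98 and its rho 0.97, both with the smallest permutation p that 100000 draws can give (1e-05). The r was 0.97 without controls 6 and 8, and 0.99 within run codes. Dusp1 rose by 0.58 ± 0.13 (edgeR adjusted p = 0.00209). Klf9 fell by 0.21 ± 0.07 (edgeR adjusted p = 0.0333), and this call was lost without control 8 (adjusted p = 0.129) and without control 4, 6, 7 or 9. It was also lost without controls 2, 8, 10 and 12 together (0.122). Cxcr4 (-0.23 ± 0.09, adjusted p = 0.0732) and Ddit4 (-0.17 ± 0.09, adjusted p = 0.153) did not pass the edgeR test. The slopes of Nr3c1, Tsc22d3 and Fkbp5 were -0.01 ± 0.03, -0.0020 ± 0.0852 and 0.06 ± 0.10. With 9 genes tested, 2 rising and 1 falling is close to the background shares. The median slope of the 9 genes was -0.0020, beside -0.02 over all genes.

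**Figure D3:**
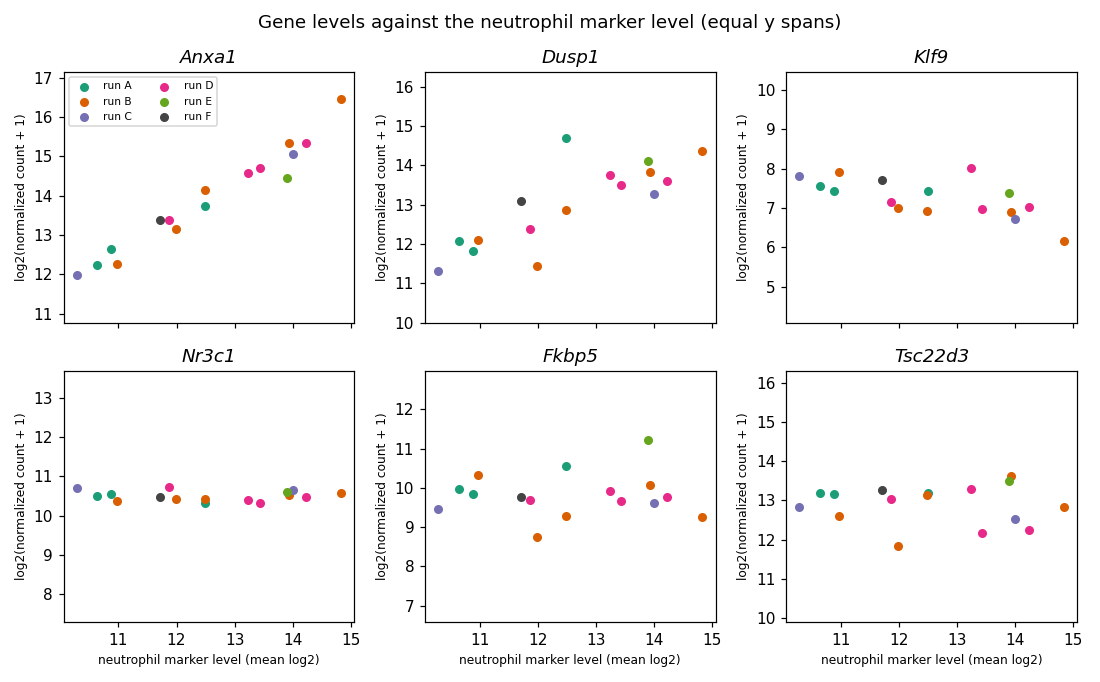
Level of 6 genes, as log2(normalized count + 1), against the mean log2 level of 7 neutrophil markers in 16 libraries coloured by run code; all panels span the same number of log2 units. Anxa1 follows the markers closely (r = 0.98) while Nr3c1 is nearly flat.

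The 5 monocyte markers did not all move together. Along the neutrophil markers 2 of them were called, both rising, and 3 were not. Control 8 was highest for Ccr1 (22339) but, apart from control 12, lowest for Csf1r (1503). Along the monocyte markers, Dusp1 rose by 1.67 ± 0.25 (edgeR adjusted p = 0.000207) and Anxa1 by 2.16 ± 0.35 (edgeR adjusted p = 0.000309), 2 of 9 genes. The background was 15% of 10915 genes rising and 10% falling. Along the lymphocyte markers, the same genes fell, Anxa1 by 3.26 ± 0.51 (edgeR adjusted p = 0.000808) and Dusp1 by 2.59 ± 0.58 (edgeR adjusted p = 0.0039), with a background of 15.1% of 10910 genes rising and 14.3% falling. Without controls 2, 8, 10 and 12 together the adjusted p was 0.0607 for Anxa1 and 0.0705 for Dusp1, with slopes of -3.46 and -3.12, and 0 genes were called overall (2373 at an unadjusted p under 0.05). The remaining 7 genes did not pass either test. The counts of 2 of 9 are not far from the background shares. Median slopes of the 9 genes were 0.13 for monocyte markers, beside -0.07 over all genes, and -0.18 for lymphocyte markers, beside 0.09.

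**Figure D4:**
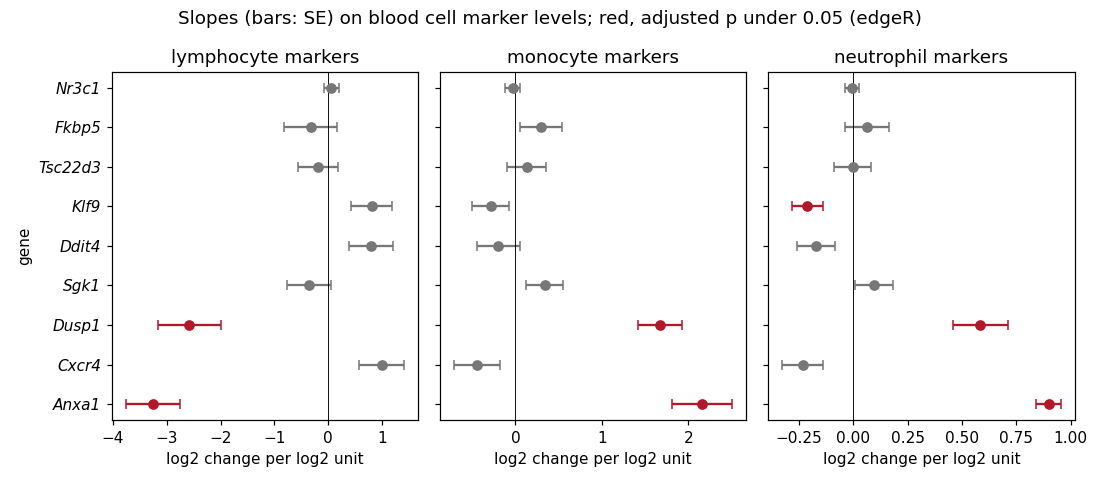
Slopes (log2 change per log2 unit, bars are SE) of 9 genes on the lymphocyte, monocyte and neutrophil marker levels from edgeR fits of 16 libraries; red marks an adjusted p under 0.05. Anxa1 and Dusp1 have opposite signs for lymphocyte markers and for the monocyte and neutrophil markers.

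For the erythroid markers 7.37% of 10915 genes were called and 0 of the 9 genes. At an unadjusted p under 0.05 there was 1 of the 9 (Fkbp5, -0.54 ± 0.21, edgeR adjusted p = 0.203), beside 14% of all genes. DESeq2, which tested all 10 genes, called 0 of them, and limma called 0 of the 9. Under total count scaling 4 of them were called, all falling, on a background of 32.1% of genes falling, when the median slope over all genes also moved from -0.07 to -0.41.

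Whether the classical targets moved together was asked with Fkbp5 and with Tsc22d3 as the x variable. With edgeR 0 of 8 genes passed in either fit, on a background of 0% of 10919 genes each. At an unadjusted p under 0.05 there were 1499 genes for Fkbp5 and 440 for Tsc22d3, of which 2 and 3 were among the 8. DESeq2 called 64 genes for Fkbp5, none of the 8, and 85 for Tsc22d3, of which Cxcr4 and Ddit4 were 2 (DESeq2 adjusted p = 0.0111 and 0.0499). Per log2 unit of Tsc22d3, the edgeR slope was 0.94 ± 0.23 for Cxcr4 and 0.78 ± 0.21 for Ddit4 (edgeR adjusted p = 0.999 for both). Per log2 unit of Fkbp5 it was 0.49 ± 0.19 for Tsc22d3 (edgeR adjusted p = 0.251). Median slopes were 0.44 for Fkbp5, beside 0.01 over all genes, and 0.43 for Tsc22d3, beside -0.02.

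Of the 45 pairs among the 10 genes, 5 had an r of at least 0.7 in size, and p-values below are unadjusted permutation values over 16 libraries. Ddit4 and Cxcr4 had r = 0.82 (permutation p = 0.00013) and rho = 0.73 (permutation p = 0.00188), with r = 0.73 without controls 8 and 9 and 0.82 within run codes. Dusp1 and Anxa1 had r = 0.79 (permutation p = 0.00044) and rho = 0.79 (permutation p = 0.00064), with r = 0.76 without controls 6 and 10 and 0.86 within run codes. Klf9 and Ddit4 had r = 0.75 (permutation p = 0.00069) and rho = 0.66 (permutation p = 0.00689), but r = 0.59 without controls 8 and 11 and 0.71 within run codes. Tsc22d3 and Cxcr4 had r = 0.73 (permutation p = 0.00153) and rho = 0.64 (permutation p = 0.00984), with 0.69 without controls 10 and 13 and 0.70 within run codes. Klf9 and Anxa1 had r = -0.72 (permutation p = 0.00165) and rho = -0.69 (permutation p = 0.00413), with -0.79 without controls 8 and 11 and -0.75 within run codes. Fkbp5 and Tsc22d3 had r = 0.57 (permutation p = 0.0217) and rho = 0.63 (permutation p = 0.0107). For this pair r was 0.23 without controls 10 and 15, the lowest and highest for Fkbp5, whose removal also narrows its range. It was at least 0.39 on leaving out any 1 library, 0.45 within run codes and 0.40 without controls 2, 8, 10 and 12. Without controls 2, 8, 10 and 12, r fell below 0.7 in size for Ddit4 and Cxcr4 (0.67), Klf9 and Ddit4 (0.64) and Klf9 and Anxa1 (-0.69). It stayed above for Tsc22d3 and Cxcr4 (0.87) and Dusp1 and Anxa1 (0.75), while Tsc22d3 and Ddit4 reached 0.77 and Sgk1 and Dusp1 0.70. The median r of the 45 pairs was 0.18.

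**Figure D5:**
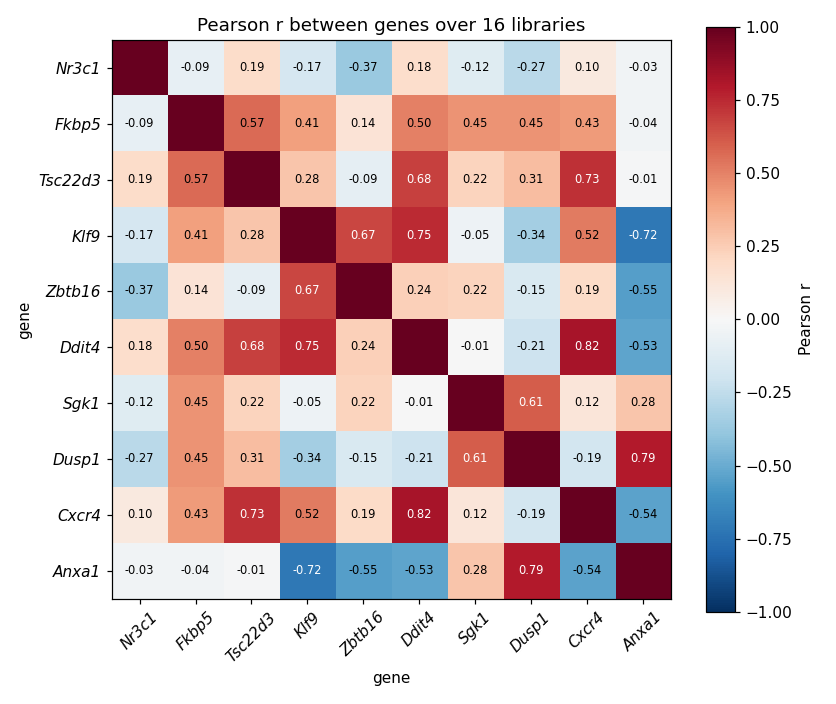
Pearson r between the levels of each pair of the 10 genes over 16 libraries, from blue (negative) to red (positive). Ddit4 and Cxcr4 have the highest r (0.82) and Klf9 and Anxa1 the lowest (-0.72).

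The genes with the order of libraries most like that of Fkbp5 were Cc2d1a, E4f1 and Mcoln1 (Spearman rho 0.79 each, n = 16, of 8374 genes). For Tsc22d3 they were Abhd6 (0.81), Sumf1 (0.78) and AI316807 (0.77). Among these genes Tsc22d3 ranked 71 for Fkbp5, while Ddit4 ranked 5 for Tsc22d3. Cxcr4 ranked 13 for Ddit4 and 43 for Tsc22d3. Other pairs with a high r ranked lower, with Ddit4 at 570 for Klf9 and Anxa1 at 506 for Dusp1. From the other side, Klf9 was at 59 for Ddit4 and Dusp1 at 835 for Anxa1. Many genes outside the set thus followed some of these genes more closely. The share of all gene pairs with such an r was not computed.

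The receptor machinery list held 17 genes for the second receptor, hormone-converting enzymes, chaperones and cofactors, of which 15 were tested. Nr3c2, the mineralocorticoid receptor, was near the limit of detection, with 1.24 normalized counts in control 5, a median of 4.68 and 18.2 in control 8, the highest without controls 2, 8, 10 and 12 being 8.39. Hsd11b1, the enzyme that regenerates active hormone, had 408 in control 4, a median of 812 and 2112 in control 2. Its next highest library was control 8 (1784), so the highest 2 were those with liver transcripts, whose part in this was not tested. Without the 4 libraries its highest value was 1574 and its CV 36.4% instead of 51.9%. None of the 15 was called with edgeR in the comparisons of runs or along Fkbp5 or Tsc22d3. Along the neutrophil markers 3 of the 15 rose (Nrip1 0.36 ± 0.09, Ncoa1 0.16 ± 0.04, Hsp90aa1 0.29 ± 0.10) and Ncoa3 fell by 0.20 ± 0.06. These counts are not far from the background of 15.8% rising and 11.9% falling. The list median was 0.02, beside -0.02 over all genes. Without the 4 libraries 1 rose and 1 fell, and under total count scaling 0 were called. Along the lymphocyte markers 0 rose and 3 fell, and along the monocyte markers 2 rose and 0 fell, close to the backgrounds of 14.3% falling and 15% rising. Both counts were 0 without the 4 libraries and under total count scaling.

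A second list held 21 other genes induced by glucocorticoids, of which 16 were tested in the 16-library fits. Like the receptor machinery list, it was chosen with earlier results of these data known. Its counts beside the background are therefore a description and not an independent test. Which blood cells carried these transcripts was not tested. Along the neutrophil markers 9 rose and 1 fell, on a background of 15.8% rising and 11.9% falling, with a list median of 0.43 beside -0.02 over all genes. Without the 4 libraries the counts were also 9 and 1. Il1r2, the decoy receptor for interleukin-1, rose by 1.26 ± 0.06 (edgeR adjusted p = 6.8e-11), Cdkn1a by 0.89 ± 0.07 and Cebpd by 0.76 ± 0.05. Sesn1 fell by 0.21 ± 0.04. Along the monocyte markers 10 rose and 1 fell, beside 15% and 10% of all genes, and without the 4 libraries 9 and 1. Along the lymphocyte markers 1 rose and 9 fell, beside 15.1% and 14.3%, but without the 4 libraries 0 were called, as over all genes. Per1, a clock gene that glucocorticoids induce, was called in none of these fits, with a neutrophil slope of -0.13 ± 0.10. Its slope on Fkbp5 was 0.60 ± 0.21 (edgeR adjusted p = 0.194). Along Fkbp5 and Tsc22d3 and between runs, 0 genes of this list were called with edgeR. Along Fkbp5, 3 of the 16 had an unadjusted p under 0.05, beside 13.7% of all genes. Per1 and Irs2 (0.43 ± 0.13) rose, while Glul, which encodes glutamine synthetase, fell (-0.56 ± 0.21). Along the erythroid markers 1 gene of the list was called, Glul (0.71 ± 0.15, edgeR adjusted p = 0.00405). That call was lost without the 4 libraries (edgeR adjusted p = 0.0599) and with run code as a further term (0.58 ± 0.38, edgeR adjusted p = 1.00), when 0 genes were called over all.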

How the data were processed

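Per the submitters' processing notes and the study's methods, reads from CASAVA 1.8.2 were trimmed and mapped by Bowtie 0.12.9 onto Ensembl rat transcripts (rn5). The authors deposited the estimated counts of each gene that RSEM 1.2.0 gave. Globin mRNA had been depleted and polyadenylated RNA selected. The study's replacement of outlying values was not applied here.

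The estimated counts were rounded to whole numbers, and only genes present in all files (18031) were kept. Normalized counts were divided by DESeq2 size factors, and log2 levels used a pseudocount of 1. Lists of genes and run codes were chosen, like the 10 genes, with earlier results of these data known. Fits across all genes used edgeR 4.0.16 (TMM scaling, filterByExpr, quasi-likelihood F-test) in R 4.3.3, with Benjamini-Hochberg adjustment and a threshold of 0.05, on 12 libraries for runs and 16 for slopes. The standard error was the size of the log2 change divided by the square root of F. Genes of a marker list took part in the fit on that list and in its adjustment, but were left out of the counts of genes tested and called. The same held for Fkbp5 and Tsc22d3 in their own fits. Alternatives were fitted with limma 3.58.1 and DESeq2 1.42.0, and the code was tested on simulated data. Correlations were two-sided with 100000 permutations. Named were the 10 genes, the 3 genes most like Fkbp5 and Tsc22d3, up to 4 called genes per list and fit, and Nr3c2, Hsd11b1, Per1 and Il1r2.

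All libraries carry a single label, so no treated group was compared. Depth was 21466776 to 31189549 counts per library, and 3 counts correspond to 0.0962 to 0.14 CPM, covering counting error only. The closest pair of libraries had a chi-square of 48.0 per degree of freedom, so none agreed within sampling noise.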

Additional observations from a re-analysis of the deposited data

Results flagged for a closer look

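In each run of 4 or 5 libraries, the gap of the highest and lowest library to the nearest other one was compared with Dixon's critical value for the 10 genes. In 1 of 20 such groups the gap exceeded it, and chance flags about 1 in 20. Klf9 in run D had 257 normalized counts in control 11, while the nearest of the other 3 libraries, control 12, had 140 (gap over range 0.878, critical value 0.829).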

How the results depend on the processing

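No paired analysis was possible because the labels give a single group. With 16 libraries and related marker levels, slopes on the lymphocyte, monocyte and neutrophil markers cannot be told apart, and Zbtb16 and Nr3c2 were too low to show modest differences. The cause of the changes below was not tested.

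For the comparisons of runs, values are percentages of the genes tested in each fit. Between A and B, DESeq2 called 3.15%, limma 0.0772% and the fit without controls 2, 8, 10 and 12 called 0.00781%, beside 0%. Between A and D, DESeq2 called 0.0444%, limma 0.0154% and the fit of all 16 libraries 0.00703%, beside 0%. Between B and D (2.3%), DESeq2 called 4.24%, no low-count filter 1.16%, total count scaling 0.0463% and the fit without the 4 libraries 0%. Leaving out 1 library gave 0% to 3.93% (without control 4), 0% to 0.015% (without control 1) and 0.0155% (without control 14; at most 0.0233% also without control 5, 11 or 13) to 5.44% (without control 4). None of the 10 genes was called in any of these. Along Fkbp5, DESeq2 called 64 genes (0.355%) and the fit with no low-count filter 1. Along Tsc22d3, DESeq2 called 85 (0.471%), 2 of them among the 10 genes.

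Along the lymphocyte markers (3205 genes), total count scaling called 1806 and the fit without the 4 libraries 0, with 0 of the 10 genes. Leaving out 1 library gave 1914 (control 8) to 3363 (control 4), with Cxcr4 called, rising, without control 7 or 10 and Klf9 without control 11. Along the monocyte markers (2731) these settings called 896 and 1039. Along the neutrophil markers (3022) they called 1015 and 1519, and leaving out 1 library gave 1902 (control 8) to 3089 (control 16). Klf9 also missed the threshold there under total count scaling (edgeR adjusted p = 0.116) and with no low-count filter (0.0657), while Cxcr4 passed it without control 4, 7 or 10 and Ddit4 without control 15 (0.0444). Anxa1 and Dusp1 passed it in all 16 fits without 1 library and in the 6 other alternatives. Along the erythroid markers (804), the run term left 0 genes, total count scaling gave 3844 with 4 of the 10 genes, the fit without the 4 libraries 494, and leaving out 1 library 477 (control 10) to 869 (control 6).

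Without the 2 farthest libraries of each pair, 3 pairs reached an r of 0.7. Total count scaling raised the median CV of the 9 genes from 35.7% to 46.1%. It moved the median log2 difference of all genes from -0.03 to -0.50 for B relative to A and from 0.04 to 0.53 for D relative to B.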
